A study of Mus musculus with 6 samples.

Results

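Genes that encode, or make, the surface markers by which naive and primed mouse pluripotent cells are told apart were followed from ESCs to EpiLCs. They were chosen by name, as 9 of the 24736 genes in the expression table: Pecam1, Alpl, Fut9, Fut4, Cd9, Cd24a, Cd81, Icam1 and Prom1. All 9 passed the filter on low counts, with between 17 and 11386 expected counts in a library. RNA came from WT mouse embryonic stem cells (ESCs, 0 h) and from epiblast-like cells (EpiLCs) differentiated for 48 h, each group with 3 biological replicates. Both groups were the same XY line, HM1 TetON, of WT genotype. ESCs grew on mitotically inactivated mouse embryonic fibroblasts, called feeder cells, and were fed medium that held 10% serum and the cytokine LIF at 1000 U/ml. EpiLCs grew on gelatin-coated dishes in serum-free N2B27 that held bFGF at 10 ng/ml and LGK974 at 5 µM, the latter of which blocks the secretion of WNT ligands, and feeder cells were removed by differential adhesion before differentiation. Time, serum, LIF, feeder cells, bFGF and LGK974 changed together, so their parts cannot be told apart, and all values are from 1 cell line.

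Naive cells resemble the epiblast of the blastocyst before implantation, and primed cells the epiblast after it. Because both states share core pluripotency factors such as OCT4, they are often separated by antibodies to surface proteins or to sugars. PECAM1 (CD31), ICAM1 (CD54), the tetraspanin CD9, tissue-nonspecific alkaline phosphatase and the Lewis x sugar (SSEA-1, CD15) have been used to mark undifferentiated mouse ESCs, and CD24 to mark primed cells. PROM1 (CD133) marks membrane protrusions of stem and epithelial cells. Lewis x is not a gene product, and is read here through the fucosyltransferases FUT9 and FUT4 that can make it. RNA abundance was measured, not the antigen on the cell surface. The groups compared were ESCs in serum and LIF and EpiLCs at 48 h, not reference lines of the naive and primed states.

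Libraries held between 16967741 and 35096210 expected counts, at which 3 counts correspond to between 0.0855 and 0.177 CPM, and this limit covers counting error only. All 10 naive markers were lower in EpiLCs and all 6 epiblast-like markers were higher, by edgeR's quasi-likelihood test at an adjusted p of at most 0.05, the threshold for every call. ESC replicate 2 stood apart: the summed level of 16 fibroblast markers was 391, 1769 and 143 TPM in ESC replicates 1, 2 and 3, and 110, 111 and 100 TPM in the EpiLC replicates. Each of the 16 fibroblast markers was highest in ESC replicate 2, and of the 15 tested, 8 were lower and 0 were higher in EpiLCs. The count lower was 3 without EpiLC replicate 1 or 3, 12 without ESC replicate 3 and 7 without any one of the others, and 1 marker was higher without ESC replicate 2. The sum was 12.4-fold higher in ESC replicate 2 than in ESC replicate 3, whereas the surface marker genes had ratios between these libraries from 0.462 (Fut9) to 1.19 (Cd81). Without ESC replicate 2 the log2 fold changes (EpiLC minus ESC) were -2.92 for Pecam1, -2.57 for Alpl, -2.28 for Icam1, -1.89 for Cd9, -0.57 for Cd81, -1.12 for Fut9, 1.35 for Fut4, 1.22 for Cd24a and 1.62 for Prom1, each with an adjusted p of at most 0.0139. In bulk RNA, fewer cells of a type and less RNA per cell cannot be told apart.

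Among the 9 surface marker genes, 8 were called: 5 were lower in EpiLCs (Pecam1, Alpl, Icam1, Cd9 and Cd81) and 3 were higher (Cd24a, Fut4 and Prom1). Of all 14468 genes tested, 45.4% were called, 22.8% lower and 22.6% higher. These shares are the background for the counts of every list of genes given here. Without EpiLC replicate 1, 4244 of 14768 genes tested were called, and 8 of the 9 surface marker genes. The TPM of ESCs and EpiLCs did not overlap for 8 of the 9 genes, against 59.5% of all genes tested. Of the 9 genes, 7 were called with a change of more than 2-fold, against 20.2% of all genes tested. The median log2 fold change of the 9 genes was -0.90, and that of all genes tested was -0.00170. Without ESC replicate 2, all 9 were called, 6 lower and 3 higher.

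**Figure D1:**
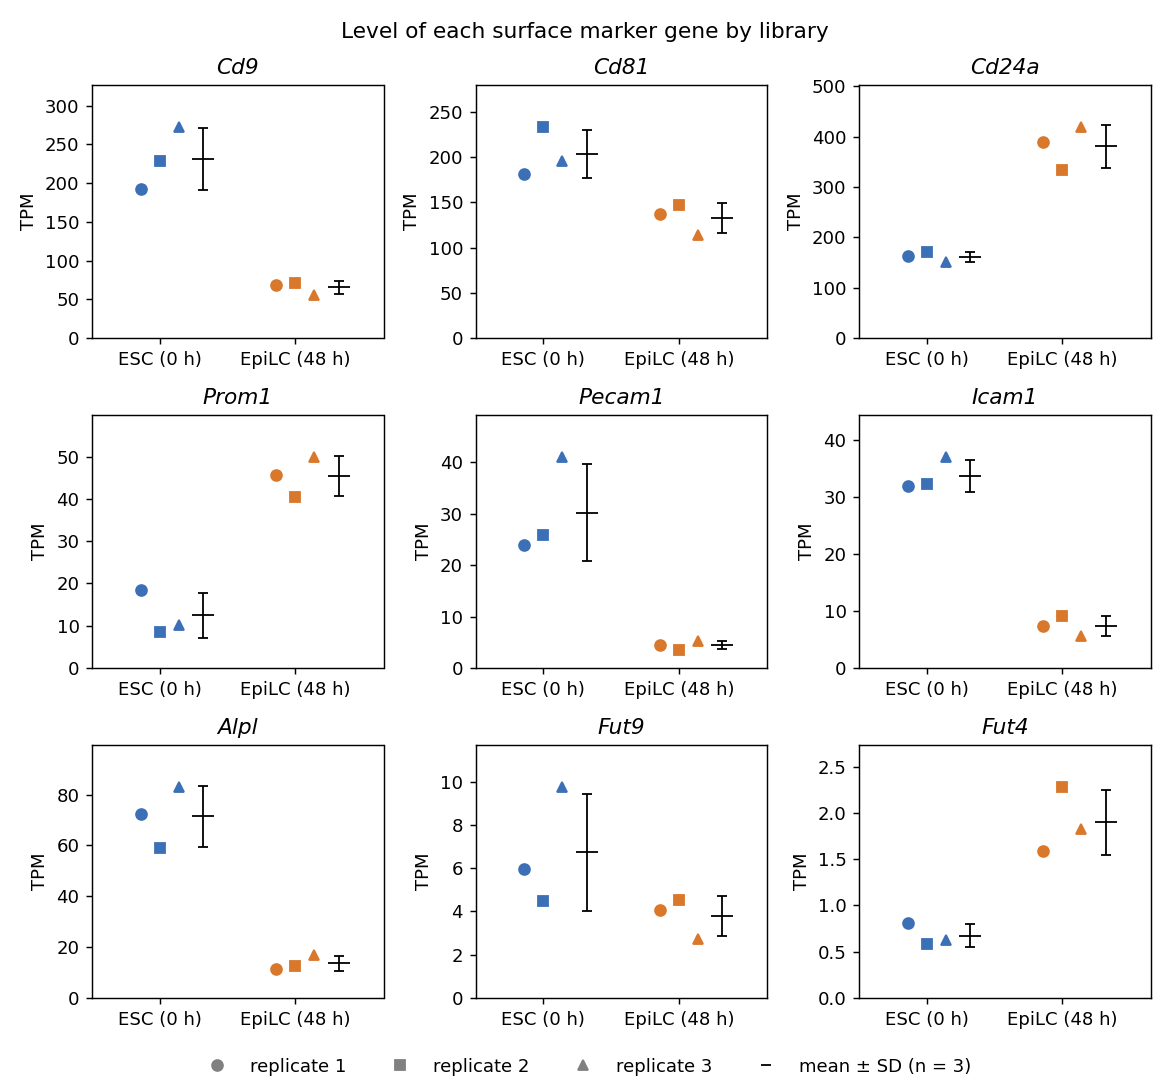
Level of each surface marker gene in TPM (y axis, from 0) in every ESC (blue) and EpiLC (orange) library, with the shape of the point giving the replicate and the bar the mean ± SD of 3 libraries. Only Fut9 has ESC and EpiLC libraries at overlapping levels, and Cd24a, Prom1 and Fut4 are the genes whose EpiLC libraries lie above the ESC libraries.

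**Figure D2:**
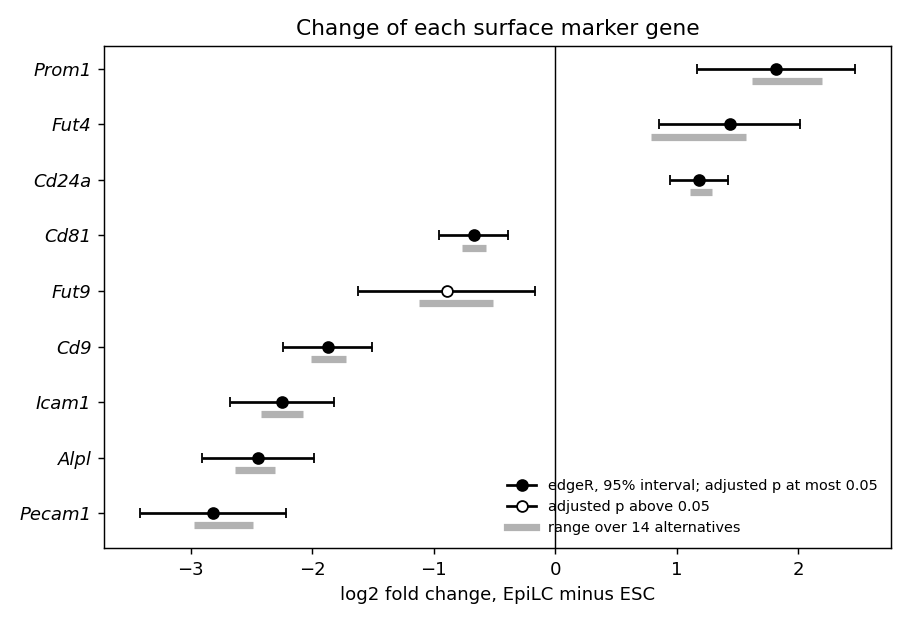
The log2 fold change of each surface marker gene (x axis, EpiLC minus ESC) with its 95% interval from edgeR, and in grey the range over 14 other ways of processing the data. Filled points have an adjusted p of at most 0.05. All intervals exclude 0, and the point of Fut9 is open because its adjusted p was 0.0506.

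Icam1 and Alpl are shown first with the sequence around their starts. Alpl has RefSeq starts of different base composition. The log2 CPM profile of Icam1 over the 6 libraries was most like that of Stat3, with that of Ulk1 almost as close. STAT3 is the transcription factor that LIF activates, and its part in the Icam1 values was not tested. Each window runs from 250 bases before the start to 50 bases from the start on, 5′ to 3′ on the strand of the gene, in RefSeq coordinates on GRCm38.p6. Capitals mark matches to 4 motifs searched on both strands: STAT (TTCNNNGAA), NF-kB (GGAAATTCC), SOX (ACAAT) and octamer (ATGCAAAT).
Icam1, chr9:21015690-21015989, plus strand: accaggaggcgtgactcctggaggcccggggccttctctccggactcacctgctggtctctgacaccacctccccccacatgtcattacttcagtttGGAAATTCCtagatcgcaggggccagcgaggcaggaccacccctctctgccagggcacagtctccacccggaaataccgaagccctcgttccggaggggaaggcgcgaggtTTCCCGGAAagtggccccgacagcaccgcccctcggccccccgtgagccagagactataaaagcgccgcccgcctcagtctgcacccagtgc
Alpl, upstream start, chr4:137796335-137796634, minus strand: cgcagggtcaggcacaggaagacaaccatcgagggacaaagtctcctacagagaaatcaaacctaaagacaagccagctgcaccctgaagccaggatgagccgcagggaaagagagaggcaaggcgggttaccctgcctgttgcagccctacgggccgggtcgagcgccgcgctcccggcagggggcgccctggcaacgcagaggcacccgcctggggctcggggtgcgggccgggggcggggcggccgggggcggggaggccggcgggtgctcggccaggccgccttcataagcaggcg
Alpl, downstream start, chr4:137766426-137766725, minus strand: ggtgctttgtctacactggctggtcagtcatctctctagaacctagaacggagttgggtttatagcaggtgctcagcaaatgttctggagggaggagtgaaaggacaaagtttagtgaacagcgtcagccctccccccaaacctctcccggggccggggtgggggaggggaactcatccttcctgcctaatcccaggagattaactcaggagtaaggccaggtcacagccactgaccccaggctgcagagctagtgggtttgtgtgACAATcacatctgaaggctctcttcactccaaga

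The Icam1 window holds 1 STAT match that begins 42 bases before the start and 1 NF-kB match that begins 153 bases before it. The letters of the STAT motif occur in 8.30% of all 32851 RefSeq promoter windows of this length, and those of the NF-kB motif in 0.317%. For NF-kB only 1 fixed sequence was searched, so its share does not count other forms of the site and does not tell how rare such sites are. The Icam1 window has 19 CG dinucleotides, against a median of 7 over all windows. The upstream Alpl window has 26 CG dinucleotides and none of the 4 motifs. The downstream Alpl window has 4 and 1 SOX match, and the SOX letters occur in 31.0% of all windows. The windows of Cd81, Cd9 and Fut4 hold 23, 18 and 18 CG dinucleotides, those of the 2 Prom1 starts hold 10 and 4, and none of these has a match to the 4 motifs. In all, 8 windows were found for 6 of the 9 genes, and Pecam1, Fut9 and Cd24a had none. Counts per gene do not tell which start was used, and a match is a description of the letters alone.

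PECAM1 is an adhesion molecule of the immunoglobulin superfamily that binds itself on neighbouring cells and is best known from endothelium. Pecam1 (Entrez 18613, chr11:106654213-106715281, minus strand) had 23.89, 25.8 and 41.02 TPM in ESC replicates 1, 2 and 3, and 4.53, 3.59 and 5.22 TPM in the EpiLC replicates. Every ESC library was above every EpiLC library, and ESC replicate 3 was above the other ESC libraries. Pecam1 was 7.04-fold higher in ESCs (log2 fold change -2.82, SE 0.25, adjusted p = 3.38e-04), the largest change of the 9 genes. It lay at the 66.2 percentile of tested genes by level in ESCs and at the 29.4 percentile in EpiLCs.

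Markers of cell types known for PECAM1 were read beside it. The summed level of 9 endothelial markers was 21.5 to 26.3 TPM in ESCs and 7.33 to 9.48 TPM in EpiLCs. Of the 6 tested, 5 were lower in EpiLCs (4 to 6 with each library left out in turn). Kdr, a VEGF receptor gene, had 13.96, 3.72 and 5.52 TPM in ESCs and at most 0.5 TPM in EpiLCs, and Vwf had a mean of 1.44 TPM in ESCs and 0.0700 TPM in EpiLCs. Cdh5, the gene of the endothelial cadherin, stayed below 1 TPM in all libraries (0.593 ± 0.240 TPM, SD, n = 3, in ESCs and 0.140 ± 0.0700 TPM in EpiLCs), and Emcn was listed at 0 in 5 of the 6 libraries. The sum of 8 blood cell markers was 36.0 to 60.0 TPM in ESCs and 5.13 to 5.86 TPM in EpiLCs. Of that sum, Laptm5 gave 46.4 ± 12.1 TPM in ESCs and 2.65 ± 0.214 TPM in EpiLCs, while Ptprc, which encodes the leukocyte antigen CD45, did not exceed 0.12 TPM in any library and Tyrobp and Cd48 were listed at 0 in all. Of the 3 blood cell markers tested, Laptm5 was lower in EpiLCs, Lcp1 was higher (1.23 ± 0.0625 to 2.07 ± 0.177 TPM, log2 fold change 0.69, adjusted p = 0.0185, lost without EpiLC replicate 1 or 2), and Spi1 was not called (0.437 ± 0.223 and 0.643 ± 0.327 TPM). The part of either cell type in the Pecam1 values was not tested.

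ICAM1 is an adhesion molecule that leukocyte integrins bind. Icam1 (Entrez 15894, chr9:21015940-21028814, plus strand, 7 exons) had 31.88, 32.24 and 37 TPM in ESC replicates 1, 2 and 3, and 7.37, 9.16 and 5.56 TPM in the EpiLC replicates. The groups did not overlap, and the ESC libraries lay close together, with a coefficient of variation of 8.48%. Icam1 was 4.76-fold higher in ESCs (log2 fold change -2.25, SE 0.18, adjusted p = 2.18e-04). Genes of the integrins that bind ICAM1 were low: of Itgal, Itgam, Itgax and Itgb2, none had a mean of 1 TPM in either group. Among the 3 of them tested, Itgam was higher and Itgal was lower in EpiLCs, and the call of Itgal was lost without EpiLC replicate 1 or 2.

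Pecam1 and Icam1 were set among 20 adhesion genes of the immunoglobulin superfamily, of which 17 were tested, 4 were higher in EpiLCs and 8, including both, were lower. With each library left out in turn, 3 to 5 were higher and 6 to 8 were lower. Cadm3 rose most, from 0.437 ± 0.0451 to 3.36 ± 0.124 TPM (log2 fold change 2.89, SE 0.19, adjusted p = 1.25e-04), and Nfasc rose from 1.60 ± 0.507 to 5.59 ± 0.355 TPM. Both encode adhesion proteins best known from neurons. Madcam1, which encodes an addressin of gut vessels, fell from 2.54 ± 0.480 to 0.140 ± 0.0872 TPM, and Vcam1 fell from 2.11 ± 2.18 to 0.193 ± 0.138 TPM. Vcam1 had 1.31, 4.57 and 0.44 TPM in ESC replicates 1, 2 and 3 and so was highest in the library with the most fibroblast marker RNA. Its log2 fold change went from -3.43 to -2.17 without that library and to -4.16 without EpiLC replicate 2, and its call was lost without EpiLC replicate 1 or 3. Icam2, the close relative of Icam1, was at most 0.12 TPM in any library and was not tested.

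CD9 and CD81 are tetraspanins, proteins that cross the membrane several times and gather integrins and immunoglobulin superfamily proteins into membrane domains. Both take part in sperm and egg fusion and mark extracellular vesicles. Cd9 (Entrez 12527, chr6:125460266-125494760, minus strand, 8 exons) had 192.2, 229.04 and 272.43 TPM in ESC replicates 1, 2 and 3, and 69.04, 71.7 and 55.84 TPM in the EpiLC replicates. All EpiLC libraries were below all ESC libraries. Cd9 was 3.66-fold higher in ESCs (log2 fold change -1.87, SE 0.15, adjusted p = 2.34e-04).

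Cd81 (Entrez 12520, chr7:143052750-143067930, plus strand) had 181.47, 233.04 and 195.59 TPM in ESC replicates 1, 2 and 3, and 136.56, 146.54 and 114.19 TPM in the EpiLC replicates. The groups did not overlap, but the gap between them was smaller than for Cd9. Cd81 was 1.59-fold higher in ESCs (log2 fold change -0.67, SE 0.12, adjusted p = 0.00466), the smallest change among the called genes. It was highest in ESC replicate 2, and without that library its adjusted p was 0.00585 at a log2 fold change of -0.57.

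The ratio of Cd9 to Cd81 in TPM was 1.06, 0.983 and 1.39 in the ESC replicates in order, against 0.506, 0.489 and 0.489 in the EpiLC replicates. Cd9 was near the level of Cd81 in ESCs and clearly below it in every EpiLC library. The mean log2 ratio, with 0.1 added to each TPM, changed by -1.19 from ESCs to EpiLCs, with all ESC libraries above all EpiLC libraries (exact permutation test, two-sided p = 0.1, the smallest that 3 against 3 samples allow).

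Of 29 tetraspanin genes, 24 were tested, 8 were higher in EpiLCs and 5, including Cd9 and Cd81, were lower. Of all genes tested, 22.6% were higher and 22.8% were lower. With each library left out in turn, 6 to 8 were higher and 4 to 7 were lower. The median log2 fold change of the tested tetraspanins was 0.00707. Tspan33 rose from 2.40 ± 0.762 to 7.16 ± 0.367 TPM, and Tspan5, which encodes a tetraspanin that guides the protease ADAM10, rose from 20.9 ± 2.68 to 49.2 ± 2.27 TPM. Upk1a, a uroplakin of the bladder lining, fell from 5.89 ± 0.873 to 0.987 ± 0.115 TPM, with no overlap. Tspan9 fell from 14.1 ± 7.12 to 6.47 ± 1.26 TPM and had 22.14 TPM in ESC replicate 2 against 11.35 and 8.7 TPM in the other ESC libraries. The log2 fold change of Tspan9 went from -1.16 to -0.68 without ESC replicate 2, and its call was lost without any one EpiLC library. Cd63, a tetraspanin of late endosomes and vesicles, had 162.93, 295.13 and 133.83 TPM in ESCs and 129, 124.36 and 97.8 TPM in EpiLCs and did not pass the test (adjusted p = 0.0552). Without ESC replicate 2 it passed, with a log2 fold change of -0.40 (adjusted p = 0.0495). It also passed without ESC replicate 3, with a larger log2 fold change of -1.01.

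Genes of proteins known to sit with tetraspanins in the membrane moved both ways: of 12 in the table, 11 were tested, 3 were higher in EpiLCs and 4 were lower, and 3 were higher and 3 to 4 were lower with each library left out in turn. Epcam, an epithelial adhesion molecule, rose from 134 ± 19.5 to 289 ± 14.3 TPM, and Itga3, a chain of laminin-binding integrins, rose from 12.6 ± 1.88 to 26.6 ± 6.22 TPM. Ifitm1 fell from 451 ± 136 to 51.2 ± 26.5 TPM, and Ifitm3 fell from 292 ± 136 to 132 ± 52.8 TPM, a call that was lost without ESC replicate 3, EpiLC replicate 1 or EpiLC replicate 2. Both are interferon-induced membrane proteins that also mark early germ cells. The direct partners of CD9 and CD81 in the immunoglobulin superfamily were Ptgfrn, which was lower in EpiLCs (log2 fold change -0.33, adjusted p = 0.00587), and Igsf8, which had 18.2 ± 4.09 TPM in ESCs and 21.5 ± 2.11 TPM in EpiLCs (adjusted p = 0.427).

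**Figure D3:**
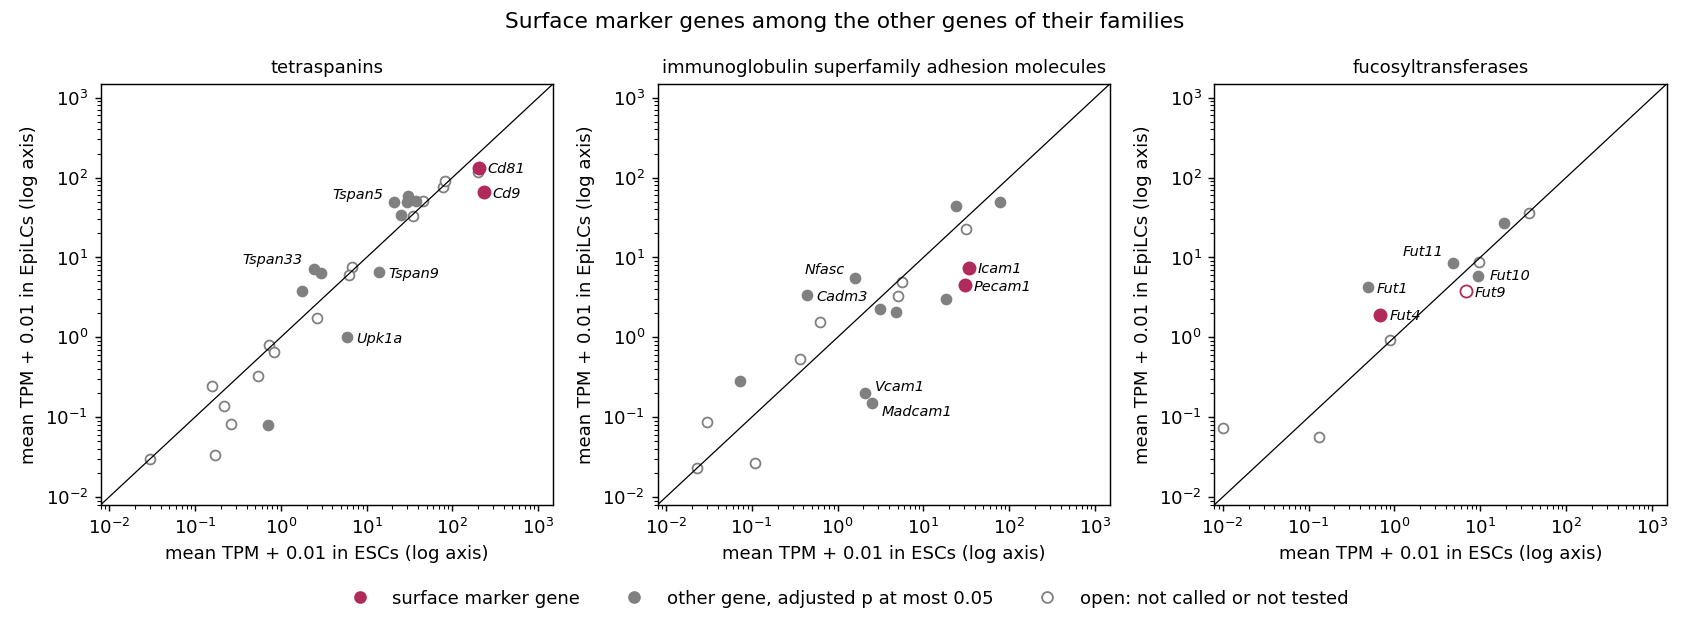
Mean level of tetraspanin, immunoglobulin superfamily adhesion and fucosyltransferase genes in ESCs (x axis) and EpiLCs (y axis), in TPM + 0.01 on log axes, with the line of equal levels. Cd9, Icam1 and Pecam1 lie below the line among relatives on both sides of it, and Fut4 and Fut1 lie above it.

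Tissue-nonspecific alkaline phosphatase is an enzyme tethered to the outer membrane by a GPI anchor, whose staining is a common test of pluripotent colonies. Alpl (Entrez 11647, chr4:137741731-137796384, minus strand) had 72.38, 58.97 and 82.98 TPM in ESC replicates 1, 2 and 3, and 11.34, 12.59 and 16.87 TPM in the EpiLC replicates. The groups did not overlap. Alpl was 5.45-fold higher in ESCs (log2 fold change -2.45, SE 0.20, adjusted p = 2.18e-04). The other 3 alkaline phosphatase genes, Alppl2, Alpi and Akp3, were listed at 0 in all 6 libraries. Alpl was thus the only gene of this family not listed at 0.

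Among 6 other genes that handle phosphate or pyrophosphate, 1 was higher and 2 were lower in EpiLCs. Without ESC replicate 2, 3 were higher and 3 were lower, and without ESC replicate 1, EpiLC replicate 1 or EpiLC replicate 3, 0 were higher. Xpr1, the phosphate exporter, fell from 10.6 ± 1.03 to 5.80 ± 0.279 TPM. The phosphate importer Slc20a1 fell from 198 ± 29.2 to 125 ± 14.6 TPM, whereas its relative Slc20a2, the gene whose call was lost in those cases, rose from 59.7 ± 2.34 to 73.2 ± 0.566 TPM.

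CD24 is a short, heavily glycosylated protein that is also held by a GPI anchor and is used to isolate primed cells. Cd24a (Entrez 12484, chr10:43579169-43584265, plus strand, 2 exons) had 164.01, 170.57 and 150.59 TPM in ESC replicates 1, 2 and 3, and 388.69, 334.43 and 418.98 TPM in the EpiLC replicates. Every EpiLC library was above every ESC library. Cd24a was 2.27-fold higher in EpiLCs (log2 fold change 1.19, SE 0.10, adjusted p = 2.62e-04), and its ESC libraries varied least of the 9 genes, with a coefficient of variation of 6.30%. It moved opposite to Alpl, the other gene of a GPI-anchored protein.

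Of 27 genes that build or remodel the GPI anchor, 26 were tested, 5 were higher in EpiLCs and 3 were lower. Leaving out each library in turn gave 3 to 6 higher, the lowest without EpiLC replicate 1, and 1 to 4 lower, with 1 without any one EpiLC library. Pgap1, which removes a lipid from the inositol of the anchor, rose from 9.64 ± 1.59 to 25.9 ± 3.09 TPM (log2 fold change 1.37), and Pigp rose from 26.2 ± 3.57 to 45.7 ± 2.07 TPM. Pigl fell from 29.1 ± 0.556 to 11.9 ± 1.39 TPM (log2 fold change -1.34). Piga, whose product starts the pathway, fell from 22.3 ± 1.67 to 18.5 ± 0.312 TPM, a call that was lost without any one EpiLC library.

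FUT9 and FUT4 add fucose to N-acetyllactosamine chains and so can make Lewis x, the sugar that antibodies to SSEA-1 bind. Fut9 (Entrez 14348, chr4:25609333-25800003, minus strand) had 5.97, 4.5 and 9.75 TPM in ESC replicates 1, 2 and 3, and 4.05, 4.54 and 2.74 TPM in the EpiLC replicates. ESC replicate 2 and EpiLC replicate 2 were at about the same level, so the groups overlapped. The log2 fold change was -0.90 (SE 0.31, 95% interval -1.63 to -0.16), and the adjusted p of 0.0506 missed the threshold. Leaving out ESC replicate 2 took the log2 fold change to -1.12, which passed (adjusted p = 0.0139). Leaving out any other library did not: it was -0.51 without ESC replicate 3 (adjusted p = 0.105), -0.71 without EpiLC replicate 3 (adjusted p = 0.149) and between -1.03 and -0.95 without one of the remaining libraries.

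Fut4 (Entrez 14345, chr9:14748459-14752122, minus strand, 1 exon) had 0.81, 0.58 and 0.63 TPM in ESC replicates 1, 2 and 3, and 1.59, 2.28 and 1.83 TPM in the EpiLC replicates. It was the lowest of the 9 genes in both groups, resting on 31, 17 and 31 expected counts in ESCs and 96, 132 and 97 in EpiLCs. The groups did not overlap, and Fut4 was 2.70-fold higher in EpiLCs (log2 fold change 1.43, SE 0.25, adjusted p = 0.00386). Limma on log2(TPM + 1) gave a smaller difference of 0.79 (adjusted p = 0.00320), since Fut4 lay below 1 TPM in ESCs, and limma on log2(TPM + 0.1) gave 1.37.

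The ratio of Fut9 to Fut4 in TPM was 7.37, 7.76 and 15.5 in the ESC replicates in order, against 2.55, 1.99 and 1.50 in the EpiLC replicates. Fut9 was the more abundant of the pair in every library, by a smaller margin in EpiLCs. The mean log2 ratio, with 0.1 added to each TPM, changed by -2.14 from ESCs to EpiLCs, with no overlap (exact permutation test, two-sided p = 0.1, the smallest that 3 against 3 samples allow). With 1 added in place of 0.1 the change was -1.45, since Fut4 lay below 1 TPM in ESCs. Fut7, a relative that acts on sialylated chains, was listed at 0 in the ESC libraries and had at most 0.08 TPM in EpiLCs.

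**Figure D4:**
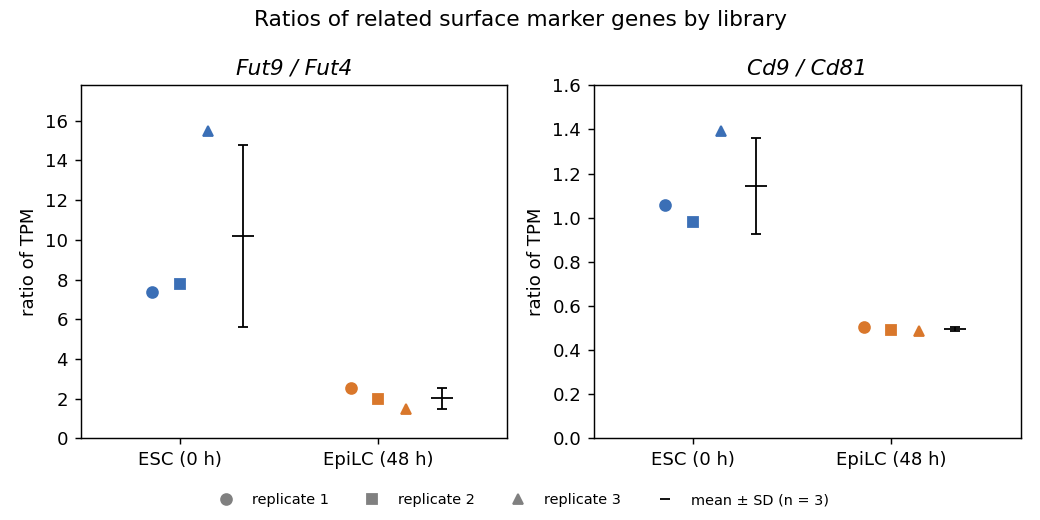
Ratio of Fut9 to Fut4 (left) and of Cd9 to Cd81 (right) in TPM (y axes, from 0) in every ESC (blue) and EpiLC (orange) library, with the mean ± SD of 3 libraries. Both ratios are lower in all EpiLC libraries, and the Cd9 to Cd81 ratio spans 0.489 to 0.506 among them.

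Of 11 fucosyltransferase genes, 9 were tested, 4 were higher in EpiLCs, including Fut4, and 1 was lower. With each library left out in turn, 3 to 4 were higher, and 2 were lower without ESC replicate 2, where Fut9 was the additional gene. Fut1, whose product adds fucose to galactose and so makes the H antigen, had 0.44, 0.15 and 0.84 TPM in ESC replicates 1, 2 and 3, and 3.84, 4.64 and 4.11 TPM in the EpiLC replicates. Its log2 fold change of 2.99 (SE 0.47, adjusted p = 0.00285) was the largest of the family, and became 3.76 without ESC replicate 3 and 2.62 without ESC replicate 2. Fut11 rose from 4.79 ± 0.882 to 8.58 ± 0.379 TPM, and Fut10 fell from 9.52 ± 1.81 to 5.81 ± 0.381 TPM. The call of Fut10 was lost without ESC replicate 1, EpiLC replicate 1 or EpiLC replicate 2, which left 0 genes of the family lower. Of 6 genes that supply GDP-fucose, the sugar donor, 2 were higher and 0 were lower in EpiLCs. They were Gmds, whose product begins the synthesis of GDP-fucose (log2 fold change 0.43, adjusted p = 0.0293), and Slc35c1, the Golgi transporter (log2 fold change 0.44, adjusted p = 0.0318). Neither call was firm: 0 of the 6 genes passed under the replicate block or without any one EpiLC library, 1 passed without ESC replicate 1 or 3, and 3 passed without ESC replicate 2.

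The chain on which Lewis x is built is made of alternating galactose and N-acetylglucosamine. Of 14 genes of the B4galt and B3gnt families, not all of which extend this chain, 12 were tested, 3 were higher in EpiLCs and 5 were lower. With each library left out in turn, 2 to 4 were higher and 3 to 5 were lower, the latter 3 without EpiLC replicate 1 or 2. B4galt4 had 3.33, 4.52 and 4.15 TPM in ESCs and 16.59, 17.88 and 13.93 TPM in EpiLCs, and B4galt1 had 34.8, 37.23 and 25.66 TPM in ESCs and 16.14, 15.97 and 16.19 TPM in EpiLCs. These galactosyltransferases thus moved in opposite directions and reached like levels in EpiLCs. B4galt2 rose from 9.34 ± 2.15 to 17.3 ± 0.892 TPM, and B3gnt9 fell from 2.54 ± 1.89 to 0.667 ± 0.163 TPM. B3gnt9 had 1.52, 4.72 and 1.38 TPM in ESC replicates 1, 2 and 3, and its log2 fold change of -1.96 became -1.18 without ESC replicate 2 and lost its call without any one EpiLC library. Of 8 sialyltransferases that cap galactose, 1 was higher and 3 were lower. Without ESC replicate 3, 5 were lower, without ESC replicate 1, 2 were higher and 2 were lower, and without any one EpiLC library 2 were lower. St6gal2 had 1.3, 0.78 and 0.79 TPM in ESCs and 13.97, 15.07 and 10.71 TPM in EpiLCs (log2 fold change 3.68, SE 0.24, adjusted p = 1.13e-04). St3gal6 fell from 3.87 ± 2.19 to 1.43 ± 0.326 TPM, a call that was lost without ESC replicate 1 or any one EpiLC library, and St3gal4 fell from 11.5 ± 1.06 to 6.38 ± 0.474 TPM.

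PROM1 is a cholesterol-binding protein of microvilli and other membrane protrusions. Prom1 (Entrez 19126, chr5:43993621-44102047, minus strand) had 18.57, 8.63 and 10.29 TPM in ESC replicates 1, 2 and 3, and 45.76, 40.48 and 49.9 TPM in the EpiLC replicates. The groups did not overlap, and ESC replicate 1 was above the other ESC libraries, which gave Prom1 the largest ESC coefficient of variation of the 9 genes (42.6%). Prom1 was 3.51-fold higher in EpiLCs (log2 fold change 1.81, SE 0.27, adjusted p = 0.00238), the largest rise among them. In the GENCODE annotation of GRCm38, Gm42716 overlaps Prom1 on the same strand and is not in the count table, so reads of the overlap cannot be told apart.

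Of 13 genes of prominins and the apical membrane, 6, including Prom1, were higher in EpiLCs and 0 were lower. With each library left out in turn, 3 to 7 were higher, with 3 without EpiLC replicate 1 and 7 without ESC replicate 2, and 1 was lower without ESC replicate 1 or 3. Prom2, the only paralogue in the list, had 0.52, 0.21 and 0.42 TPM in ESCs and 2.91, 3.62 and 2.61 TPM in EpiLCs, so both prominin genes rose, with Prom1 far above Prom2 in every library. Slc9a3r1, which encodes the microvillar scaffold EBP50, had 76.2, 71.18 and 72.63 TPM in ESCs and 214.32, 214.19 and 215.72 TPM in EpiLCs (log2 fold change 1.50, SE 0.06, adjusted p = 2.07e-05). Its libraries lay closer together within each group than those of Prom1.

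A list of 30 other surface proteins used to sort stem cells, which shares a few genes with the lists above, had 11 genes higher in EpiLCs and 12 lower. With each library left out in turn, 10 to 12 were higher and 10 to 12 were lower. Cd34 rose from 2.12 ± 0.142 to 8.53 ± 1.44 TPM, and Slc2a1, the glucose transporter GLUT1, rose from 221 ± 35.4 to 678 ± 86.6 TPM. Ly6a (Sca-1) fell from 26.4 ± 15.1 to 2.43 ± 1.51 TPM, and Cd274 (PD-L1) fell from 6.63 ± 2.87 to 0.720 ± 0.204 TPM.

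Summed over the 9 genes, ESCs had 752 ± 55.5 TPM (SD, n = 3) and EpiLCs 655 ± 25.8 TPM, but its makeup differed. Cd24a gave 21.6 ± 2.53% of the sum in ESCs and 58.0 ± 4.47% in EpiLCs. Cd9 gave 30.6 ± 3.16% and 10.0 ± 1.59%, and Cd81 gave 27.1 ± 3.13% and 20.3 ± 3.21%. Alpl went from 9.52 ± 1.56% to 2.07 ± 0.413%, and Prom1 from 1.70 ± 0.857% to 6.92 ± 0.485%. These shares are per transcript by TPM and sum to the whole, so they do not vary independently, and no test was made.

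Ordered by mean TPM in ESCs, the genes ran Cd9, Cd81, Cd24a, Alpl, Icam1, Pecam1, Prom1, Fut9 and Fut4. The libraries of Cd9 and Cd81, of Icam1 and Pecam1, and of Prom1 and Fut9 overlapped across the replicates. Within libraries, Cd9 was above Cd81 and Icam1 was above Pecam1 in 2 of 3, so the order of those pairs was not the same throughout, whereas Prom1 was above Fut9 in 3 of 3. In EpiLCs the order was Cd24a, Cd81, Cd9, Prom1, Alpl, Icam1, Pecam1, Fut9 and Fut4, and only the libraries of Pecam1 and Fut9 overlapped. Prom1 thus passed Alpl, Icam1 and Pecam1, and Cd24a passed both tetraspanins.

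The 9 genes were not ordered alike over the ESC libraries. Of the 9, 5 were highest in ESC replicate 3 (Pecam1, Alpl, Fut9, Cd9 and Icam1), 2 in ESC replicate 2 (Cd24a and Cd81) and 2 in ESC replicate 1 (Fut4 and Prom1). The 7 primitive endoderm markers summed to 72.9 TPM in ESC replicate 1, 48.9 in replicate 2 and 39.5 in replicate 3, against 10.7 to 11.2 TPM in EpiLCs, and 5 of them were lower in EpiLCs. Only Cd24a had the order of the fibroblast sum, highest in replicate 2 and lowest in replicate 3. The part of fibroblast RNA in the differences between ESC libraries was not tested beyond leaving out ESC replicate 2, which left each of the 8 calls in place. The sums of 7 trophoblast markers (15.6 to 29.3 TPM in ESCs and 15.9 to 18.7 TPM in EpiLCs) overlapped between groups, and of the 6 tested, 1 was higher and 2 were lower in EpiLCs (1 to 2 higher and 0 to 2 lower with each library left out in turn, 2 higher without ESC replicate 2, 1 lower without ESC replicate 1 or EpiLC replicate 3 and 0 lower without EpiLC replicate 1 or 2). The sums of 6 neural markers were 107 to 146 TPM in ESCs and 186 to 228 TPM in EpiLCs, but only Tubb3 was called (65.8 ± 16.4 to 121 ± 7.99 TPM, adjusted p = 0.00977). The other 5 were not called, among them Pax6, whose means were 2.75 ± 0.845 and 1.56 ± 0.371 TPM (adjusted p = 0.0544). Without ESC replicate 2, 3 neural markers were higher, without EpiLC replicate 3, 2 were, and without ESC replicate 1, 1 was lower.

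**Figure D5:**
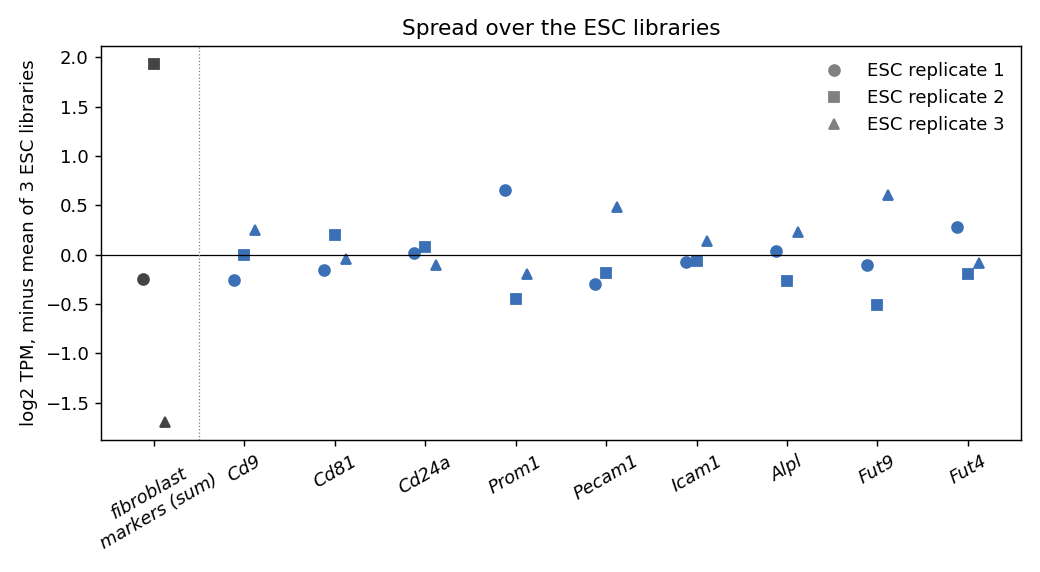
Level in each ESC library as log2 TPM minus the mean of the 3 ESC libraries (y axis), for the sum of 16 fibroblast markers and for each surface marker gene (x axis), with the shape of the point giving the replicate. The fibroblast sum spans 3.63 on the log2 scale between replicates 2 and 3, and Fut9 spans 1.12 between them in the opposite direction.

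Genes with the most similar profile over the 6 libraries were found for each surface marker gene among 13253 other tested genes, by the root mean square (RMS) difference of log2 CPM centred on each gene's mean. Because ESCs and EpiLCs differ in so many genes, a small difference is a description of these libraries only. For Icam1 the closest was Stat3 (RMS difference 0.119), which had 64.2 ± 4.62 TPM in ESCs and 13.6 ± 4.17 TPM in EpiLCs, followed by the autophagy kinase gene Ulk1 (0.121). For Pecam1 they were St8sia1, a ganglioside sialyltransferase (0.130), and Ceacam1, an adhesion molecule (0.131). For Alpl they were 1700029P11Rik (0.0903) and Gpa33, which encodes a surface antigen of intestinal epithelium (0.107).

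The profile of Cd9 was closest to those of Slc17a9, a vesicular nucleotide transporter (0.0959), and Oplah (0.101), and that of Cd81 to those of Rictor, a subunit of mTORC2 (0.0409), and the spectrin gene Sptan1 (0.0592). For Cd24a they were Ttc7 (0.0545) and Slc45a3 (0.0768), for Fut4 Lpcat4 (0.109) and Necab3 (0.126), for Fut9 Wwox (0.131) and Apobec1 (0.135), and for Prom1 Cables1 (0.121) and Mpped1 (0.139). None of these nearest genes was another surface marker gene. Between the 9 genes themselves, the closest pairs were Cd9 and Icam1 (0.243), Pecam1 and Alpl (0.274), and Fut4 and Cd24a (0.290).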

How the data were processed

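The authors trimmed adapters with cutadapt 1.16, mapped the single-end, strand-specific reads of polyA RNA with STAR 2.5.2a and counted them per mm10 RefSeq gene with RSEM 1.3.0. They deposited expected counts, where a read matching more than 1 gene is divided among those genes, and TPM, which RSEM scales for length and library. The 9 surface marker genes had whole expected counts in all libraries, within 0.001 counts. The culture methods give a longer EpiLC protocol than the 48 h of the labels and the results text.

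Expected counts were rounded, normalized by TMM, filtered with filterByExpr (14468 genes kept) and fitted in edgeR 4.0.16 under R 4.3.3, by its quasi-likelihood test, over the 3 ESC and 3 EpiLC libraries, with Benjamini-Hochberg adjustment over all genes tested and a threshold of 0.05. TPM are given per library and as mean ± SD (n = 3). Log2 ratios of gene pairs used TPM + 0.1 and a two-sided exact permutation test. Similarity of profiles used log2 CPM with a prior count of 2, among genes with a mean of at least 1 TPM in either group. In each list, at most the 2 largest rises and 2 largest falls among called genes at that level are named, plus close relatives of a surface marker gene at any level; Ptgfrn, Igsf8, Cd63, Icam2, Itgal, Itgam, Cdh5, Vwf, Kdr, Emcn, Laptm5, Lcp1, Spi1, Tubb3, Pax6, Ptprc, Tyrobp and Cd48 are named as known partners, relatives or markers. The members, lists and tests were chosen with earlier results of these data known. Alternatives were DESeq2 1.42.0, other scalings and filters, a replicate block, limma 3.58.1 on log2 TPM and leaving out each library. List counts under these alternatives were added after the data were seen. Scripts were tested on simulated data. Promoter windows and positions are from RefSeq on GRCm38.p6, which shares the coordinates of mm10.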

Additional observations from a re-analysis of the deposited data

How the results depend on the processing

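Of the 9 surface marker genes, 8 stayed on the same side of the threshold and kept their direction under all 14 alternatives, although Fut4 went from 1.43 to 0.79 on the log2 scale with limma on log2(TPM + 1). Fut9 was negative in all 14 and passed the threshold with DESeq2 (log2 fold change -0.90, adjusted p = 0.00842), with DESeq2 size factors in edgeR (-0.91, adjusted p = 0.0495), with no filter (-0.88, adjusted p = 0.0483) and without ESC replicate 2 (-1.12, adjusted p = 0.0139). Leaving out each library in turn moved it between -1.12 and -0.51 (adjusted p from 0.0139 to 0.149). The number of surface marker genes called ranged from 8 to 9 over the alternatives. Over all genes, leaving out each library gave 4244 to 7181 calls, 2144 to 3572 higher and 2100 to 3609 lower, with the lowest of each without EpiLC replicate 1. Upper-quartile scaling and DESeq2 size factors moved the list counts by at most 1 gene in a direction, but leaving out a library moved them further: GDP-fucose genes higher went from 2 to 0 without any one EpiLC library and under the replicate block, prominin and apical genes higher from 6 to 3 without EpiLC replicate 1, fibroblast markers lower from 8 to 3 without EpiLC replicate 1 or 3 and to 12 without ESC replicate 3, and sialyltransferases lower from 3 to 5 without ESC replicate 3. Neural markers higher went from 1 to 3 with DESeq2, under the replicate block and without ESC replicate 2.

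Deviations of same-numbered libraries correlated at r = 0.00668, 0.186 and 0.170 for numbers 1, 2 and 3, and those of differently numbered libraries at -0.215 to 0.0836. Numbers 2 and 3 thus gave the 2 highest values, and the libraries numbered 1 did not correlate best with each other. These values do not settle whether the numbers mark pairs. The main fit did not pair the libraries, and a block on the numbers was run as an alternative. With the replicate block, 6085 genes were called, 8 of the 9 surface marker genes among them, and Fut9 had a log2 fold change of -0.84 (adjusted p = 0.104). Under the block the smallest p of the ratio tests is 0.25, and with 1 library left out it is 0.2, so these cannot pass the threshold in this design. Depth limits Fut4 most, which rests on 17 to 31 counts in an ESC library.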
